A study of Mus musculus with 26 samples.

Results

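This account compares 6 inner cell masses (ICMs) of mouse embryos cultured with the inhibitor LY and added FGF4 (LY+FGF4) with 7 ICMs cultured with LY alone, and asks what added FGF4 changed where LY was already present. The 13 libraries were taken by their labelled treatment out of 26 in the series, each made from 1 ICM by FLASH-seq, a full-length RNA-seq method. The embryos were of the CD-1 strain, collected as morulae at the same embryonic day in every group and cultured for 24 hours. LY, the labels' name for the PI3K inhibitor LY294002, was at 10 µM in both groups, and FGF4 with heparin at 1 µg/ml was in the LY+FGF4 group only. The other groups of the series, DMSO vehicle (5 ICMs) and FGF4 without LY (8 ICMs), entered the statistical fit but not the contrast. The zona pellucida had been removed and the ICM freed by immunosurgery, which lyses the outer cells, so remaining trophectoderm cells can be part of a sample. Litters had been mixed before the embryos were distributed, so each library is a separate embryo of unknown litter. Each library pools the cells of 1 ICM, so that fewer cells of a type and less RNA per cell cannot be told apart.

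In the mouse blastocyst the ICM separates into epiblast, which forms the embryo proper, and primitive endoderm, which forms yolk sac tissue. Epiblast cells secrete FGF4. It binds FGF receptors on neighbouring cells and activates the kinase ERK, and cells with high ERK activity turn towards primitive endoderm, marked by the transcription factors GATA6, SOX17 and GATA4 and the receptor PDGFRA, while cells that keep NANOG become epiblast.

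In ICMs that received FGF4 on top of LY, 3 of 10 tested primitive endoderm transcription factors and 5 of 21 tested ERK target genes rose, and 6 of 11 tested epiblast genes fell. With the number of detected genes of each library as a covariate these counts were 2, 3 and 3. Sox17 averaged 5.35 ± 8.09 TPM (a transcript's share of a library, as deposited; SD, n = 7) with LY and 493 ± 253 TPM (SD, n = 6) with LY+FGF4. Transcript of the embryonic Fgf4 gene averaged 33.4 ± 19.3 TPM with LY, and every LY+FGF4 library listed it at 0. Nanog averaged 146 ± 27.9 TPM with LY and 30.6 ± 44 TPM with LY+FGF4. Over all 12034 tested genes, 758 passed limma's test at a Benjamini-Hochberg adjusted p under 0.05, which is 6.3% of them. Of these, 216 were higher in LY+FGF4 (1.79%) and 542 lower (4.5%). A gene was tested if it reached a TPM of 1 in at least 5 of the 26 libraries, and log2 fold changes were taken of TPM + 1, so that the change of low genes is understated. Among genes with a mean under 5 TPM over the 26 libraries 5 were higher and 65 lower, and among those of at least 100 TPM 126 were higher and 194 lower, as the plot of all tested genes shows.

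**Figure D1:**
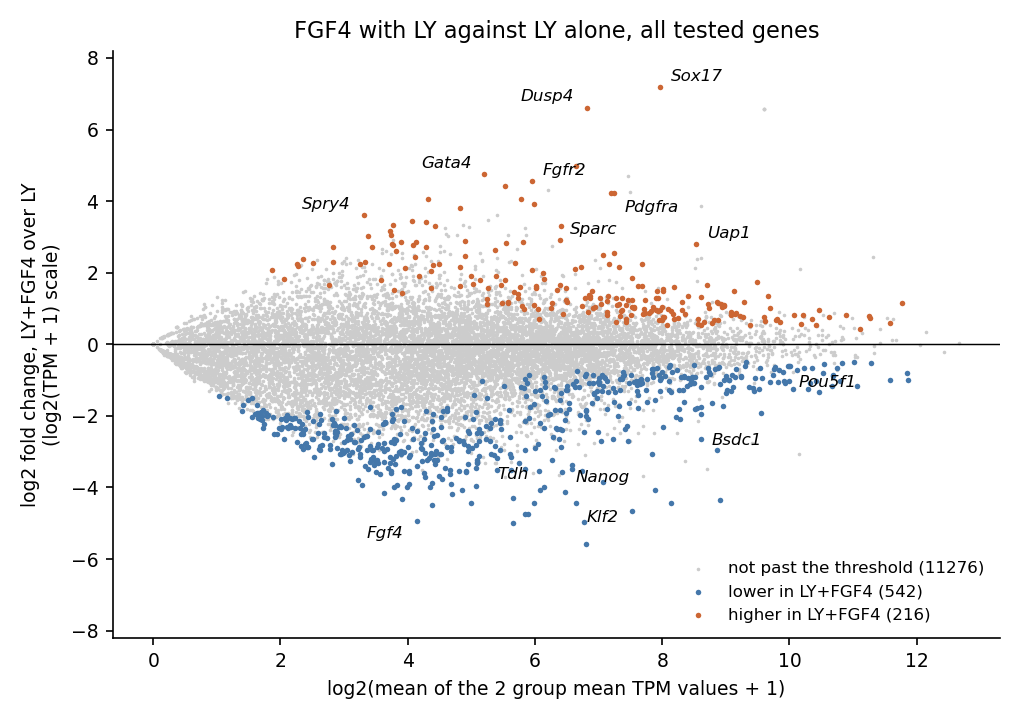
Each point is 1 tested gene. The x axis is the log2 of the mean of the LY and LY+FGF4 group means plus 1 (TPM), and the y axis is the log2 fold change of LY+FGF4 over LY on the log2(TPM + 1) scale. Orange points (216) were higher and blue points (542) lower at an adjusted p under 0.05, and Sox17 (7.18) and Dusp4 (6.61) lie at the top.

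The LY+FGF4 libraries held fewer genes, and this bears on every lower call. LY libraries listed 9860 to 10215 genes at a TPM of at least 1 (mean 10084 ± 126, SD, n = 7) and LY+FGF4 libraries 7486 to 9534 (mean 8654 ± 705, SD, n = 6). The groups did not overlap, with a difference of -1430.6 genes (two-sided exact permutation test over the 13 libraries, p = 0.000583, the smallest that 1716 arrangements can give). The estimated number of reads was of the same range in both groups, 323800 to 576370 with LY and 327560 to 479620 with LY+FGF4 (exact permutation test of the log2 values, p = 0.885). Replicates 2, 3, 5 and 8 of LY+FGF4 were under 9000 genes, and only replicates 6 and 7 were above. At a TPM of at least 10 the difference was -342.62 genes (exact permutation test, p = 0.0361) and the groups overlapped. Among the tested genes 17.4% of values were 0 with LY and 29.3% with LY+FGF4, and the median log2 fold change of all tested genes was -0.24, with 61.2% of genes below 0. Libraries of 1 group also resembled each other less with LY+FGF4 (median correlation of each library with the others of its group 0.707 to 0.765) than with LY (0.830 to 0.858).

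**Figure D2:**
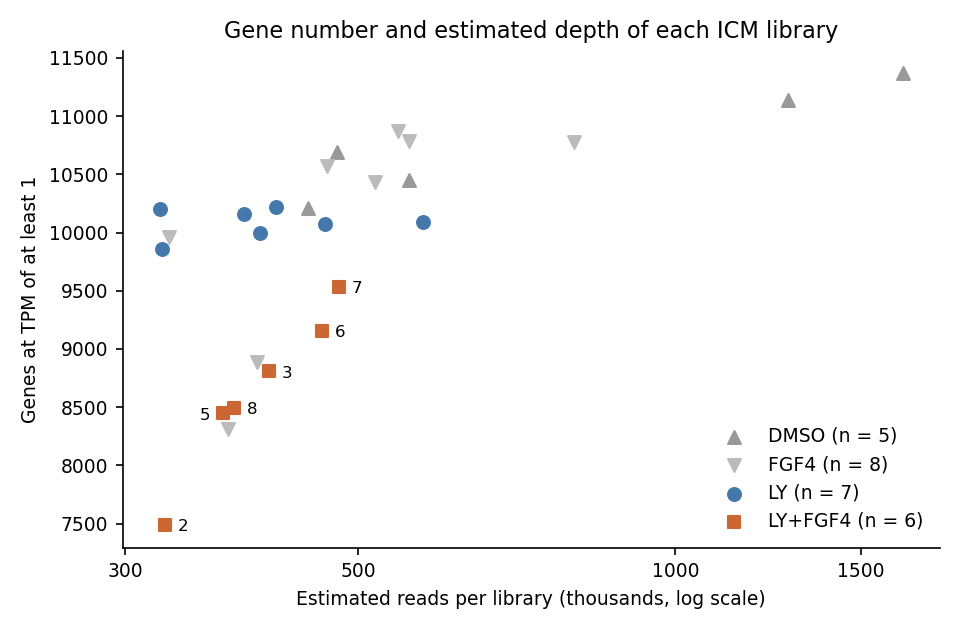
Each point is 1 ICM library. The x axis is the estimated number of reads (log scale) and the y axis the number of genes at a TPM of at least 1. The 6 LY+FGF4 libraries (orange squares, labelled by replicate) lie below the 7 LY libraries (blue circles) at a similar estimated depth.

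The test was therefore repeated in several ways. With the gene number of each of the 26 libraries as a covariate, 108 genes passed, 53 higher and 55 lower, and 85 of these (34 higher, 51 lower) were calls of the fit without it. Without the libraries under 9000 genes, where LY+FGF4 is represented by replicates 6 and 7, 595 genes passed, 211 higher and 384 lower, of which 276 were also calls of the fit of all libraries. That fit also left out replicates 2 and 3 of FGF4 without LY, at 8315 and 8885 genes. The covariate and the omission were not combined in 1 fit. In the fit of all libraries and in each of these 2 alternatives, 74 genes held their calls (30 higher, 44 lower). When the gene number was a covariate within the 13 libraries alone, 1 gene passed, against 320 in the 13 libraries without the covariate. The groups do not overlap in gene number, so that within these libraries the group and the gene number cannot be told apart. Setting each library's median to the same value gave 301 higher and 332 lower genes, so the share of higher genes among the calls, 28.5% as deposited, was 47.6% after centring. All 758 genes kept their direction with the gene number as covariate over 26 libraries and after centring. Without the libraries under 9000 genes 754 kept it, and with the covariate within the 13 libraries 698. Centring moves every log2 fold change by the same amount (median of all tested genes -0.2351 before and -0.0566 after). The genes were called on the same values, so kept directions describe the calls and do not support them.

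Calls were also described by whether every library of a group stood outside the other group. This used the same values as the test and so adds no support to a call. The groups did not overlap in gene number either. All 6 LY+FGF4 libraries lay above all 7 LY libraries for 75 tested genes (0.623%) and below them for 146 (1.21%), and 61 higher and 124 lower calls were among these. Of the 542 lower calls, 179 were at 0 in at least 4 of the 6 LY+FGF4 libraries and 48 in all 6, while 220 were above 0 in all 13 libraries. Of the 216 higher calls, 175 were above 0 in all 13 libraries. In the 2 LY+FGF4 libraries with the most genes, replicates 6 and 7, both values lay above the whole LY range for 139 of the 216 higher calls, against 7.06% of tested genes, and below it for 304 of the 542 lower calls, against 6.61%. These libraries took part in the test, so the shares describe the calls and do not support them.

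**Figure D3:**
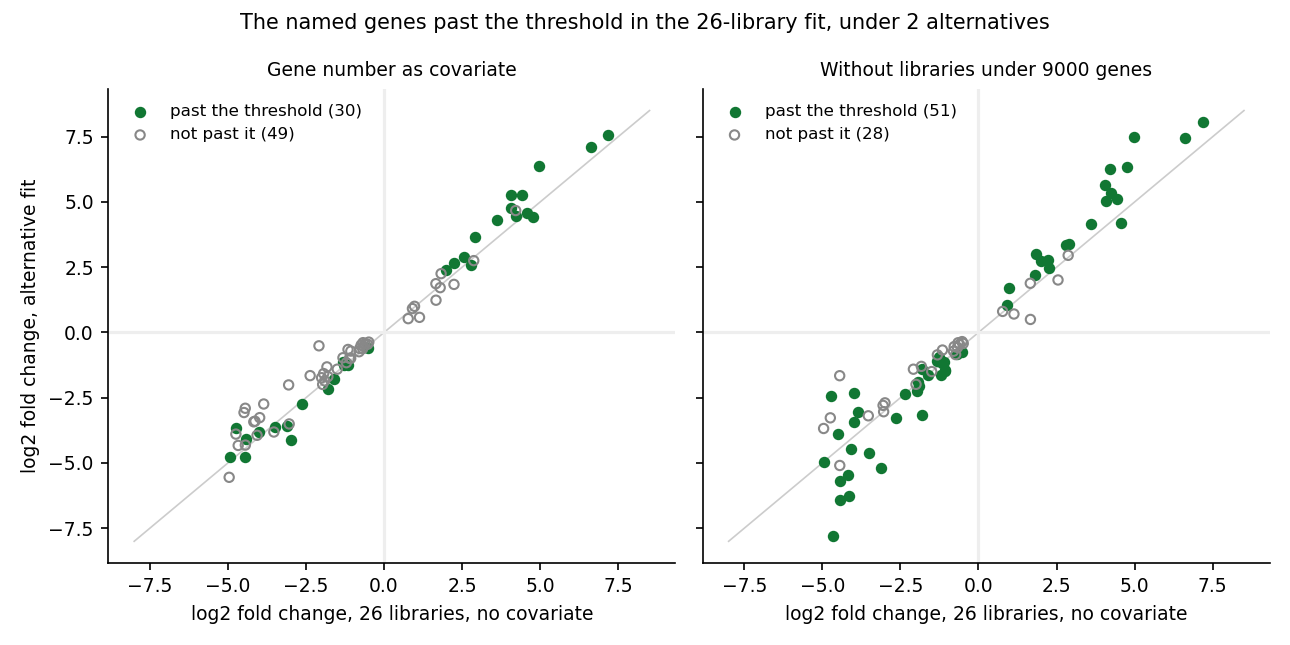
Each point is 1 of the 79 named genes that passed the test. The x axis is the log2 fold change of LY+FGF4 over LY in the fit of 26 libraries and the y axes the same with the gene number as covariate (left) and without libraries under 9000 genes (right). Filled points passed the test in the alternative, 30 on the left and 51 on the right, and all 79 kept their sign in both. The genes were called on the same values, so the kept signs do not support the calls.

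The FGF ligand gene Fgf4 fell and 1 of 4 FGF receptor genes, Fgfr2, rose. Fgf4, the ligand, had values of 16.1 to 73.1 TPM with LY (median 27.1) and was at 0 in every LY+FGF4 library (adjusted p = 3.24e-07, and 0.000156 with the gene number as covariate). The added factor is a protein, so it does not enter the RNA values. Fgfr2, a receptor that primitive endoderm and trophectoderm cells carry, was at 0.76 to 25.5 TPM with LY (median 2.79) and at 47.2 to 203 TPM with LY+FGF4 (median 119). Its log2 fold change was 4.57 ± 0.62 (SE, adjusted p = 7.55e-05, and 0.0049 with the gene number as covariate), and the groups did not overlap. The annotated span of Fgfr2 lies over many other genes on both strands, and how reads shared with them were assigned is not known, which limits these values. Fgfr1, the receptor that all ICM cells carry, was at 57.2 to 122 TPM with LY and at 124 to 258 TPM with LY+FGF4, without overlap, but did not pass the adjusted test (0.87, adjusted p = 0.133). Fgfr3 and Fgfr4 averaged under 3 TPM in both groups and gave no call. Of 24 tested components of the FGF pathway, Fgfr2 rose and Fgf4 and Map2k2 fell, with a median of -0.12. Map2k2, the gene of the ERK-activating kinase MEK2, averaged 124 ± 41.3 TPM with LY and 56.6 ± 25 TPM with LY+FGF4 (-1.15, adjusted p = 0.0137), and did not pass with the gene number as covariate (adjusted p = 0.392).

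For the ligand and the receptors Fgfr2 and Pdgfra, whose transcripts separated the groups without overlap, the promoter windows are shown, from 250 bases before to 50 bases after the RefSeq start (GRCm38.p6, 5′ to 3′ on the gene's strand), with a CACGTG match in capitals.
Fgf4, chr7:144861136-144861435, plus strand: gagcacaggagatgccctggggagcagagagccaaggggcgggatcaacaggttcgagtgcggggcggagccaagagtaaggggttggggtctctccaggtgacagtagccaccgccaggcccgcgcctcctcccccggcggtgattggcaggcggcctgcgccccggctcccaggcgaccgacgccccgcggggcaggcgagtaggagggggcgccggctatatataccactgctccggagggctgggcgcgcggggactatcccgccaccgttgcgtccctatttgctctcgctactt
Fgfr2, chr7:130266759-130267058, minus strand: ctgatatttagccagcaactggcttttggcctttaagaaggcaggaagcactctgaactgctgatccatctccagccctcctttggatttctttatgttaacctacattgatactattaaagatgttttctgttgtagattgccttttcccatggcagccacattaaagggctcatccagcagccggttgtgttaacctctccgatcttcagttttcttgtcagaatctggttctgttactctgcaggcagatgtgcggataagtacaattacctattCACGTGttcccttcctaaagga
Pdgfra, chr5:75152001-75152300, plus strand: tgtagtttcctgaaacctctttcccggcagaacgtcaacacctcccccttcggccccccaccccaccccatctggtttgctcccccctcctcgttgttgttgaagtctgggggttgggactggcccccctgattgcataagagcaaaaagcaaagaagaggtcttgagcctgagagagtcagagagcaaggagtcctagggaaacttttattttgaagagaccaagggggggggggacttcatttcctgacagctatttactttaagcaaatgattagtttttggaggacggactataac
These windows were searched on both strands for AGATAA (the letters bound by GATA factors), CGGAAGT (ETS factors), ACAATGG (SOX factors) and CACGTG (an E box). Only the Fgfr2 window held a match, 1 E box. Over the 11595 windows of the 9090 tested genes with an entry, AGATAA was in 6.23%, against 6.22% of 193 windows of genes that rose and 8.43% of 534 windows of genes that fell. CGGAAGT was in 14% of all windows, 17.6% for genes that rose and 10.3% for genes that fell, and ACAATGG in 2.06%, 2.59% and 1.87%. CACGTG was in 10.3%, 9.33% and 9.55% of them. These are matches of letters in a short window and not binding sites.

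Of 21 tested FGF/ERK target genes, 5 rose and 0 fell, with a median of 0.83 against -0.24 for all tested genes. The 5 were Dusp4, Spry4, Etv4, Phlda1 and Spred1. Regardless of the test, 14 of the 21 had a log2 fold change above 0 and 7 below 0. Dusp4, a phosphatase that switches off ERK and is itself induced by it, was at 0 in 4 of 7 LY libraries and at most 9.84 TPM in the others. In the LY+FGF4 libraries it ranged from 67 to 352 TPM (median 252), with a log2 fold change of 6.61 ± 0.67 (SE, adjusted p = 3.24e-07). Spry4, a feedback inhibitor of receptor tyrosine kinase signalling, was at 0 in 5 LY libraries and at most 1.74 TPM, and at 4.9 to 36.8 TPM (median 18.1) with LY+FGF4 (3.61, adjusted p = 0.000347). Both genes were above the whole LY range in all 6 LY+FGF4 libraries, and both passed with the gene number as covariate. Phlda1, another ERK-induced gene, was at 22.1 to 120 TPM with LY and at 126 to 660 TPM with LY+FGF4, again without overlap (2.24, adjusted p = 0.00127).

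Other ERK targets varied more between ICMs. Etv4, an ETS transcription factor induced by FGF, was at 0 in 5 LY libraries, at 1.8 and 26.2 TPM in the others, and at 1.55 to 79.3 TPM with LY+FGF4 (2.87, adjusted p = 0.0317). When each of the 13 libraries was omitted in turn, it no longer passed in 7 cases, with an adjusted p of up to 0.0914 without LY+FGF4 replicate 2. Spred1, an inhibitor of the RAS-ERK cascade, averaged 0.68 ± 1.35 TPM with LY and 8.66 ± 7.07 TPM with LY+FGF4 (2.27, adjusted p = 0.0349). Dusp6, a phosphatase of ERK in the cytoplasm, was at 0 to 27.8 TPM with LY and at 8.24 to 44.5 TPM with LY+FGF4 and did not pass (2.56, adjusted p = 0.0629). Etv5 ranged from 21.5 to 466 TPM with LY and from 141 to 661 TPM with LY+FGF4 and gave no call (1.04, adjusted p = 0.307). With the gene number as covariate 3 of the 21 genes passed, and 3 without the libraries under 9000 genes, all of them higher.

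Of 10 tested transcription factors of primitive endoderm, 3 rose and 0 fell, with a median of 1.00. Regardless of the test, 6 of the 10 had a log2 fold change above 0 and 3 below 0. Sox17 was at 0 in 4 LY libraries and at 5.4, 11 and 21 TPM in the others. In LY+FGF4 replicates 2, 3, 5, 6, 7 and 8 it was at 486, 489, 115, 766, 768 and 332 TPM. No LY+FGF4 library came near the LY range, and the log2 fold change was 7.18 ± 0.71 (SE, adjusted p = 3.24e-07, and 4.44e-05 with the gene number as covariate). Gata4, which follows Gata6 in this lineage, was at 0 in 5 LY libraries and at 1.1 and 1.74 TPM in the others. With LY+FGF4 it was at 125, 3.77, 87.5, 116, 92.4 and 1.97 TPM in the same order of replicates. Replicates 3 and 8 were thus just above the LY libraries and the other 4 far above them (4.75 ± 0.78, SE, adjusted p = 0.000596, and 0.0306 with the gene number as covariate).

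Gata6, the earliest of these factors and one that all early ICM cells carry, was already expressed with LY, at 135 to 232 TPM (median 164). With LY+FGF4 it was at 534, 182, 293, 494, 603 and 146 TPM, so that replicates 2, 5, 6 and 7 were above the LY range and replicates 3 and 8 within it. Its log2 fold change was 0.98 ± 0.28 (SE, adjusted p = 0.0365). It no longer passed in 9 of the 13 single-library omissions, with an adjusted p of up to 0.0954 without LY+FGF4 replicate 2, nor with the gene number as covariate (adjusted p = 0.2). Eomes, a T-box factor, was at 1.7 to 22.2 TPM with LY and at 11.9 to 110 TPM with LY+FGF4 (2.36, adjusted p = 0.0607). Sox7, a later marker, was at 0 in all 13 libraries. Without the libraries under 9000 genes 5 of the 10 factors passed, all higher.

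The LY+FGF4 ICMs differed among themselves in these genes. The summed TPM of the primitive endoderm factors was 1347 in replicate 2, 800.3 in replicate 3, 532 in replicate 5, 1561 in replicate 6, 1724 in replicate 7 and 673 in replicate 8, and 194 to 379 in the 7 LY libraries. By this sum all 6 were above the LY libraries, with replicates 6 and 7 highest and replicate 5 lowest. Sox17 and Gata6 made up much of it, averaging 493 and 375 TPM with LY+FGF4. The mean log2(TPM + 1) of the same genes overlapped, at 2.13 to 3.34 with LY and 3.22 to 5.62 with LY+FGF4. The summed TPM of the epiblast genes in the same order was 269, 518, 410.1, 591, 643 and 900.3, against 852 to 1278 with LY. Replicate 8 was inside the LY range by this sum, and it was also the LY+FGF4 library with the most Nanog, at 105 TPM.

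**Figure D4:**
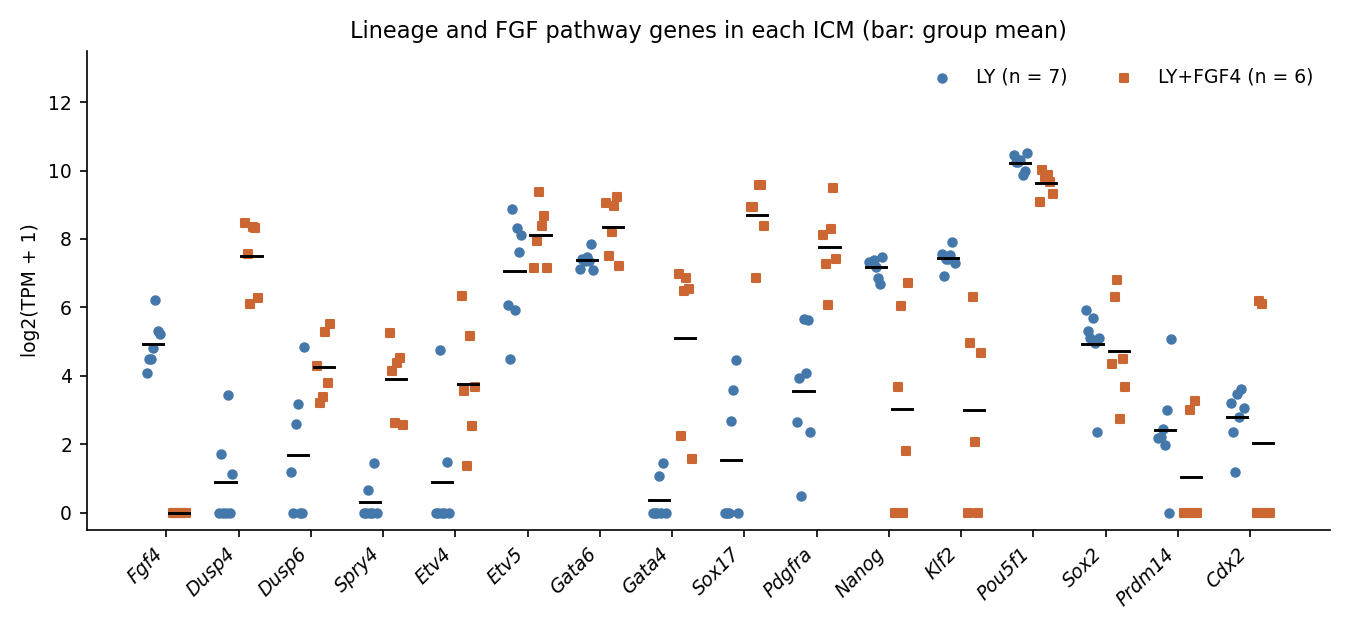
Each point is 1 ICM and each bar the group mean, for LY (blue circles, n = 7) and LY+FGF4 (orange squares, n = 6). The y axis is log2(TPM + 1), and the x axis lists FGF pathway, primitive endoderm, epiblast and trophectoderm genes. Fgf4, Dusp4, Spry4, Sox17, Gata4, Pdgfra and Klf2 do not overlap between groups, while Gata6, Nanog, Etv4 and Sox2 do.

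Among 13 tested primitive endoderm receptors and endocytic proteins, Pdgfra and Fgfr2 rose and 0 fell (median 0.47). Regardless of the test, 8 of the 13 had a log2 fold change above 0 and 4 below 0. Pdgfra, the PDGF receptor that marks the lineage, was at 0.4 to 49.1 TPM with LY (median 14.3). In LY+FGF4 replicates 2, 3, 5, 6, 7 and 8 it was at 274, 153, 66.1, 311, 721 and 170 TPM. Every one was above the highest LY library (4.23 ± 0.59, SE, adjusted p = 9.74e-05, and 0.00403 with the gene number as covariate). Lrp2, an endocytic receptor, averaged 0.98 ± 1.28 TPM with LY and 6.76 ± 4.24 TPM with LY+FGF4 (1.80, adjusted p = 0.0752). The mature endoderm genes Afp, Ttr and Rbp4 were at 0 in all 13 libraries and were not tested.

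Of 25 tested basement membrane and matrix genes, 6 rose and 1 fell, with a median of 0.46. Primitive endoderm lays down the first basement membrane of the embryo. Sparc, a matrix protein that binds collagen, was at 4.95 to 33.6 TPM with LY and at 91.6 to 229 TPM with LY+FGF4, without overlap (2.91 ± 0.43, SE, adjusted p = 0.000156, and 0.000293 with the gene number as covariate). Col4a1, a chain of the basement membrane collagen, averaged 41.9 ± 18.6 TPM and 243 ± 187 TPM (2.24, adjusted p = 0.0027), with replicate 8 inside the LY range. Its call was lost with the gene number as covariate (adjusted p = 0.116). Serpinh1, a collagen chaperone, was at 0 to 7.6 TPM with LY and at 349, 19.1, 0, 375, 358 and 75.4 TPM with LY+FGF4 (4.98, adjusted p = 0.0114). All but replicate 5, at 0, were above the LY range.

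The other matrix genes that rose were the laminin receptor genes Itga6 (1.99, adjusted p = 0.00612) and Itga3 (1.68, adjusted p = 0.0287) and P4ha2, a collagen prolyl hydroxylase (2.09, adjusted p = 0.0496). Fn1, which encodes fibronectin, fell from 170 ± 140 to 49.6 ± 40 TPM (-1.84, adjusted p = 0.0362). The laminin chain gene Lamb1 was at 11.8 to 134 TPM with LY. With LY+FGF4 it was at 759, 540 and 762 TPM in replicates 2, 6 and 7 and at 4.77 to 98.7 TPM in replicates 3, 5 and 8, and it gave no call (1.5, adjusted p = 0.354). Without the libraries under 9000 genes 6 of these genes rose and 1 fell, and with the gene number as covariate 3 rose.

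Of 11 tested epiblast genes, 0 rose and 6 fell, with a median of -3.06. They were Fgf4, Nanog, Klf2, Spic, Gdf3 and Tdgf1. Nanog, the transcription factor that defines epiblast, was at 101 to 177 TPM with LY. In LY+FGF4 replicates 2, 3, 5, 6, 7 and 8 it was at 0, 11.7, 64.6, 0, 2.5 and 105 TPM. Replicate 8 lay within the LY range and the other 5 below it (-4.13 ± 0.96, SE, adjusted p = 0.00978). With the gene number as covariate the log2 fold change was -3.40 and the call was lost (adjusted p = 0.198), while without the libraries under 9000 genes it was -6.27 (adjusted p = 0.000357). Klf2, a naive pluripotency factor, was at 120 to 241 TPM with LY and at 0 to 77.3 TPM with LY+FGF4, without overlap (-4.45, adjusted p = 0.00345, and 0.0439 with the gene number as covariate). Gdf3, a TGF-beta family ligand, averaged 57.1 ± 21.2 and 10.8 ± 13.2 TPM (-3.12, adjusted p = 0.00178).

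Spic, an ETS-family factor, was at 20.5 to 71.8 TPM with LY and at 0 in 4 LY+FGF4 libraries, with 12.7 TPM in replicate 5 and 13.8 TPM in replicate 8 (-4.17, adjusted p = 0.00346). Tdgf1, a NODAL co-receptor, fell by 3.06 (adjusted p = 0.0441) but did not pass in 11 of the 13 single-library omissions, with an adjusted p of up to 0.106 without LY+FGF4 replicate 5. The other 5 tested epiblast genes gave no call. Sox2 was at 4.1 to 60.3 TPM with LY and at 5.62 to 110 TPM with LY+FGF4 (-0.20, adjusted p = 0.922), and its sign was different in other fits. Prdm14 (-1.37, adjusted p = 0.263), Utf1 (-0.78, adjusted p = 0.123), Esrrb (-0.03, adjusted p = 0.978) and Bmp4 (2.09, adjusted p = 0.399) were the others. With the gene number as covariate 3 of the 11 genes fell, and 5 without the libraries under 9000 genes.

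Of 17 tested general and naive pluripotency genes, 0 rose, 5 fell and 12 gave no call, with a median of -0.37 against -0.24 for all tested genes. Pou5f1, the gene of OCT4, which epiblast and early primitive endoderm both carry, was at 936 to 1461 TPM with LY and at 538 to 1034 TPM with LY+FGF4 (-0.61 ± 0.15, SE, adjusted p = 0.0127). Its call was lost with the gene number as covariate (adjusted p = 0.275) and after median centring (adjusted p = 0.116). Tdh, a threonine-degrading enzyme of pluripotent mouse cells, was at 45.8 to 230 TPM with LY and at 0 to 43 TPM with LY+FGF4, without overlap (-3.98, adjusted p = 0.000596). Nr5a2 (-2.0, adjusted p = 0.0153) and Dppa3 (-1.21, adjusted p = 0.00202) were also separated, and Dppa2 fell by 1.01 (adjusted p = 0.03). Klf4, Klf5, Tfcp2l1, Tbx3, Zfp42 and Sall4 gave no call. With the gene number as covariate 0 of the 17 passed. Among 5 tested formative genes Otx2, which marks the later epiblast, fell by 3.53 (adjusted p = 0.01), with an adjusted p of 0.0896 with the gene number as covariate.

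Some transcripts of the trophectoderm, oocyte-derived and Y-linked lists also differed between the groups. Whether ICM cells or other cells carried the transcripts of the first 2 lists was not tested. The summed TPM of 21 trophectoderm genes was 2173 to 3335 with LY and 709 to 2761 with LY+FGF4, and of these genes 0 rose and 4 fell (median -0.76). The 4 were Tfap2c (-3.50, adjusted p = 0.00252), Hand1, Sfn and Cldn4. Hand1 was at 0 in all 6 LY+FGF4 libraries and in 2 of 7 LY libraries. Of these 4 only Tfap2c passed in all 13 single-library omissions. Cdx2, which defines trophectoderm, was at 1.26 to 11.2 TPM with LY, at 71.7 TPM in LY+FGF4 replicate 3, at 67.4 TPM in replicate 5 and at 0 in the other 4 (-0.76, adjusted p = 0.768). Elf5 was at or near 0 throughout, at no more than 1.72 TPM. The 6 tested transcripts of the oocyte-derived list summed to 1659 to 3305 TPM with LY and 795 to 1303 TPM with LY+FGF4. Nearly all of this sum was 1 gene, Khdc3, part of the maternal complex of the egg. Khdc3 fell from 2253 ± 536 to 999 ± 201 TPM without overlap (-1.16, adjusted p = 0.000301) and was the 1 call among the 6. Y-linked transcripts were above 0 in 5 of 7 LY libraries and in 1 of 6 LY+FGF4 libraries (difference of summed TPM -126.84, exact permutation test, p = 0.021). The part of these differences in the results was not tested, and fits with the trophectoderm and Y-linked levels as covariates kept 210 and 392 of the 758 calls.

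Of 13 tested genes of the WNT pathway, 3 rose and 0 fell, with a median of 0.62. Regardless of the test, 7 of the 13 had a log2 fold change above 0 and 6 below 0. Dkk1, a secreted WNT inhibitor known from primitive endoderm, was at 0 in 5 LY libraries and at 3.46 and 12.9 TPM in the others, and at 14.9 to 92.8 TPM with LY+FGF4, without overlap (4.07 ± 0.74, SE, adjusted p = 0.0016, and 0.0119 with the gene number as covariate). Axin2, a direct WNT target, averaged 16.7 ± 15.3 and 51.4 ± 26.5 TPM (1.80, adjusted p = 0.0241), and the receptor gene Fzd7 0.46 ± 0.70 and 5.87 ± 5.41 TPM (1.83, adjusted p = 0.0462). The calls of Axin2 and Fzd7 did not hold in 4 and 10 of the 13 single-library omissions, nor with the gene number as covariate.

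LY acts on the pathway whose components made up a further list, and 23 of these genes were tested. Akt1, the gene of the main kinase below PI3K, rose from 78.2 ± 18.3 to 181 ± 81.9 TPM without overlap (1.13, adjusted p = 0.0264). Pik3cb, a catalytic PI3K subunit of low level, was at 0 to 6.09 TPM with LY and at 0 in all 6 LY+FGF4 libraries (adjusted p = 0.0459), and did not pass in 11 single-library omissions. The list's median was -0.28, close to that of all tested genes. Akt1 lost its call with the gene number as covariate (adjusted p = 0.51). Sgk1, a kinase related to AKT, was at 24.9 to 818 TPM with LY and at 0 to 95.4 TPM with LY+FGF4 (-4.67, adjusted p = 0.00577, and 0.109 with the gene number as covariate).

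Several lists of metabolic genes contained lower calls only. Lower calls were also the more frequent over all tested genes (4.5%, against 1.79% higher). Of genes with a mean of at least 100 TPM over the 26 libraries, 8.45% were lower and 5.49% higher. Of 31 sterol and lipid synthesis genes 0 rose and 5 fell, with a median of -0.68. Msmo1, a sterol demethylase, was at 58.6 to 564 TPM with LY and at 0 to 57.3 TPM with LY+FGF4 (-3.85, adjusted p = 0.0027). Insig1, a sterol sensor (-1.97), Scd2, a fatty acid desaturase (-1.83), and Fdft1, squalene synthase (-2.49), were among the others. None of the 5 passed with the gene number as covariate, where Insig1 had an adjusted p of 0.05. Of 36 lysosome and autophagy genes 0 rose and 6 fell (median -0.54), among them Npc2, a cholesterol carrier of the lysosome, from 601 ± 194 to 175 ± 110 TPM (-1.93, adjusted p = 0.00147). Wipi2, which acts in autophagosome formation, was at 150 to 315 TPM with LY and at 37.2 to 111 TPM with LY+FGF4 (-1.62, adjusted p = 0.00152), and was the 1 gene of that list to pass with the gene number as covariate. Psap, a lysosomal activator protein, fell by 1.07, and replicate 8 was within the LY range at 1619 TPM.

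Of 28 respiratory chain genes 0 rose and 4 fell (median -0.35), each by less than 1 on the log2 scale. Atp5b, a subunit of ATP synthase, averaged 4678 ± 1010 and 2684 ± 525 TPM without overlap (-0.80, adjusted p = 0.00787). The 4 lost their calls with the gene number as covariate and after median centring. Of 27 tested ATF4 and amino acid genes 0 rose and 3 fell, although the list's median was 0.38. Pck2 (-1.90, adjusted p = 0.0132), a mitochondrial enzyme, Ddit4, an mTORC1 inhibitor (-2.99, adjusted p = 0.0164), and Sars, a seryl-tRNA synthetase (-0.78, adjusted p = 0.021), were the 3. Without LY+FGF4 replicate 8 the adjusted p of Sars was 0.0506. With the gene number as covariate Pck2 (adjusted p = 0.141) and Sars (adjusted p = 0.281) did not pass, and without the libraries under 9000 genes Ddit4 did not (adjusted p = 0.0543). Among 18 glycolysis genes Eno1, an enolase, rose (0.91, adjusted p = 0.0306) and Gapdh (-1.11, adjusted p = 0.00682) and Hk1 (-2.08, adjusted p = 0.0417) fell. Eno1 and Hk1 did not pass in 7 and 8 single-library omissions. None of the 18 passed with the gene number as covariate, where Gapdh had an adjusted p of 0.133.

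**Figure D5:**
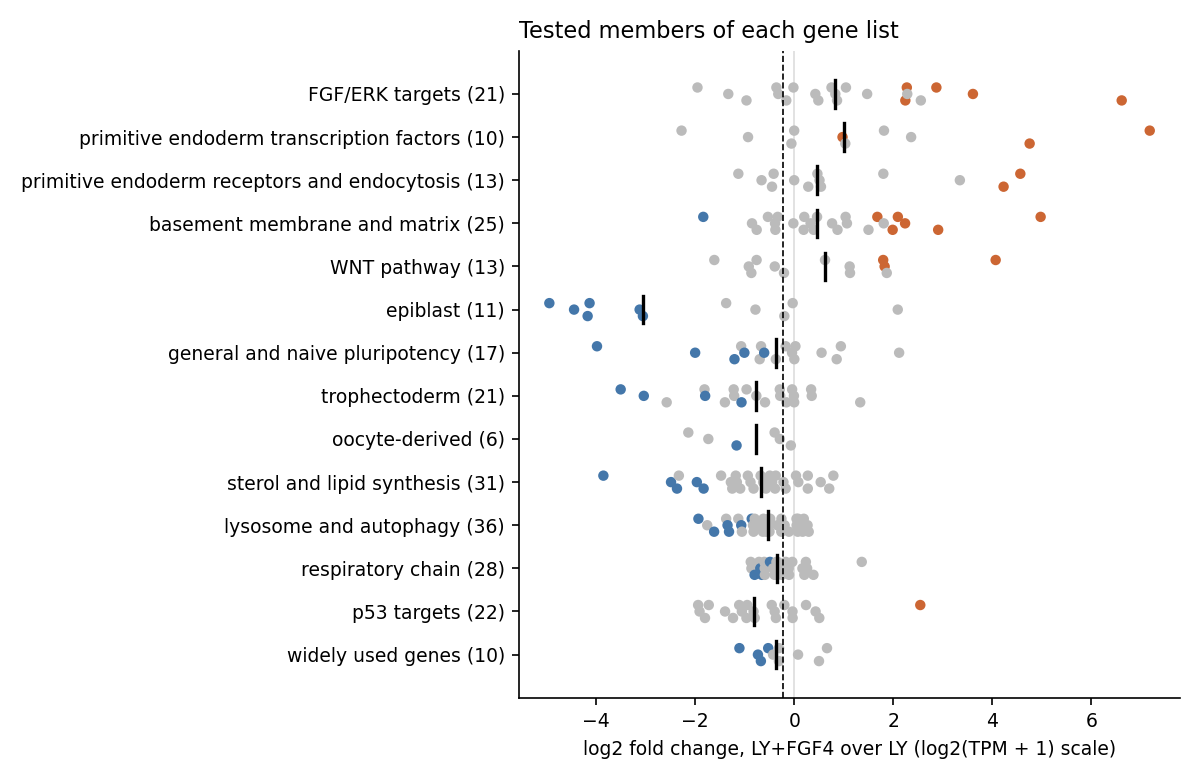
Each point is 1 tested member of a gene list (number tested in brackets), placed by its log2 fold change of LY+FGF4 over LY. Orange members rose and blue ones fell at an adjusted p under 0.05. The black bar is the list's median and the dashed line the median of all tested genes (-0.24), and the epiblast list has the lowest median (-3.06) of those shown.

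In the lists of cell death and the cell cycle 1 or 2 members each passed, against 6.3% of all tested genes. Bcl2l14, a BCL2 family member, fell by 4.07 (adjusted p = 0.0107), and lost its call with the gene number as covariate (adjusted p = 0.133). Of 19 tested apoptosis regulators 0 rose and 2 fell, with a median of -0.46. Of 22 p53 targets only Pmaip1, the pro-apoptotic NOXA gene, passed. It was at 17.4 to 76.1 TPM with LY and at 90.5 to 373 TPM with LY+FGF4 (2.55, adjusted p = 0.0023), while the list's median was -0.81. Without the libraries under 9000 genes it did not pass (2.01, adjusted p = 0.0704). Top2a, a topoisomerase of dividing cells, rose from 34 ± 8.69 to 132 ± 94.5 TPM without overlap (1.66, adjusted p = 0.00644) as 1 of 27 G2/M genes, and Rrm2, a ribonucleotide reductase subunit, by 0.77 (adjusted p = 0.0296) as 1 of 29 S phase genes. Top2a was at 46.8 and 46.9 TPM in replicates 6 and 7 and at 92.9 to 298 TPM in the libraries under 9000 genes, and without the latter it gave no call (0.50, adjusted p = 0.524). Rrm2 did not pass in 6 single-library omissions.

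Of 10 genes that nearly every cell uses 0 rose and 4 fell (median -0.37), namely Gapdh, Ppia (-0.67), Actb (-0.73) and Rplp0 (-0.53), and all 4 have pseudogene copies whose share of the reads is not known. After median centring 1 of the 10 rose and 1 fell, and Actb did not pass in 7 single-library omissions (adjusted p of up to 0.0747 without LY+FGF4 replicate 6). Of 81 tested genes of cytosolic ribosomal proteins, a list added after the values were seen, 2 rose and 20 fell, with a median of -0.39. The remaining lists held 0 to 2 calls each, against 6.3% of all tested genes. Of 22 genes of the unfolded protein response Atf6 rose (1.66, adjusted p = 0.047), but it did not pass in 10 single-library omissions (adjusted p of up to 0.104 without LY+FGF4 replicate 6) or with the gene number as covariate (adjusted p = 0.175). Of 28 ribosome biogenesis genes Npm1 fell (-0.53, adjusted p = 0.0148, and 0.203 with the gene number as covariate), of 16 BMP, NODAL and TGF-beta genes Gdf3 and Tdgf1 fell, and of 13 Hippo and YAP genes 0 passed.

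Outside the lists, the genes that separated the groups with the smallest p were Uap1, Bsdc1, Snx5, Calcoco2 and Serhl. Uap1, an enzyme that makes the sugar donor UDP-GlcNAc, was at 60.1 to 110 TPM with LY and at 260 to 968 TPM with LY+FGF4 (2.79 ± 0.26, SE, adjusted p = 2.35e-07), the smallest adjusted p of all tested genes. Bsdc1 was at 478 to 1009 TPM with LY and at 40.8 to 220 TPM with LY+FGF4 (-2.64 ± 0.35, SE, adjusted p = 6.87e-05). It was the only named gene that passed in every fit that was tried, including that with the gene number as covariate within the 13 libraries. Calcoco2, an autophagy receptor, averaged 1997 ± 256 and 815 ± 210 TPM (-1.32, adjusted p = 9.08e-05), and Snx5, a sorting nexin, 388 ± 52.7 and 163 ± 41.8 TPM (-1.28, adjusted p = 7.29e-05). Serhl was at 7.23 to 74.3 TPM with LY and at 0 in 5 of 6 LY+FGF4 libraries (-3.99, adjusted p = 9.08e-05).

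Other large rises were in Lmo2, a transcriptional co-factor, from 4.92 ± 5.77 to 84.9 ± 44.5 TPM without overlap (4.42, adjusted p = 0.000347), Ube2l6, a ubiquitin-like conjugating enzyme (4.05, adjusted p = 0.0159), and Nup62cl (4.21, adjusted p = 0.0245). Nup62cl did not pass in 5 single-library omissions (adjusted p of up to 0.0594 without LY+FGF4 replicate 6) or with the gene number as covariate (adjusted p = 0.132). It was at 0 in replicate 5 and at 124 to 603 TPM in the other 5 LY+FGF4 libraries. Among called genes of at least 5 TPM in the higher group, the largest falls besides Fgf4 were in Pramel5, Ly6e, Mboat1, Sgk1, Klf2, Trim43a and Capg, at log2 fold changes between -4.43 and -4.96. Mboat1, a lysophospholipid acyltransferase (-4.73, adjusted p = 0.000121), and Capg, an actin-capping protein (-4.43, adjusted p = 0.000133), passed with the gene number as covariate, and Pramel5, Ly6e and Trim43a did not. Trim43a also did not pass in 5 single-library omissions (adjusted p of up to 0.0819 without LY+FGF4 replicate 2). Wdr25 and Snord17 also fell, but Wdr25 overlaps Wars and Snord17 is a short RNA within Snx5, so that their reads cannot be assigned with certainty. Serhl overlaps Rrp7a and Snx5 overlaps Mgme1 on the other strand, and whether counting used strand is not known, which limits their values likewise.

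The same FGF4 effect was measured without LY in the other 13 libraries, and the difference between the effects was tested as an interaction. It passed the adjusted test for 6 of 12034 genes (726 at an unadjusted p under 0.05), and Serhl was the only one of these among the named genes. The FGF4 effect on Sox17 was 7.18 with LY and 2.76 without it (difference 4.42, unadjusted p = 0.000155, adjusted p = 0.143). The starting levels differed, at a mean of 5.35 TPM with LY and 151 ± 125 TPM with DMSO. With FGF4 the means were 493 ± 253 TPM with LY and 667 ± 179 TPM without it. For Gata4 the effects were 4.75 and 4.18 (adjusted p = 0.976), for Pdgfra 4.23 and 2.11 (adjusted p = 0.696), for Nanog -4.13 and -4.28 (adjusted p = 0.995) and for Fgf4 -4.94 and -5.15 (adjusted p = 0.985). These adjusted p-values do not show that the effects were equal.

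On GRCm38, by the GENCODE M21 annotation, the protein-coding genes on which the results turn lie as follows. Sox17 spans chr1:4490931-4497354 and Gata4 chr14:63198922-63271692, both on the minus strand. Pdgfra spans chr5:75152292-75198215, Dusp4 chr8:34807297-34819894 and Nanog chr6:122707489-122714633, all on the plus strand. Fgf4 spans chr7:144847367-144865243 and Klf2 chr8:72319033-72321656 on the plus strand, and Uap1 chr1:170141938-170174957 on the minus strand. Values are given per gene symbol, so isoforms were not told apart.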

How the data were processed

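The deposited table holds TPM values that the authors computed per gene symbol. STAR, RSEM and mm10 appear in the submitters' processing notes, and trimming and de-duplication of reads in the labels. For versions, annotation and strandedness, nothing is given in the sources used here. TPM is a share of a library and keeps no read number. Depth was therefore estimated from the spacing of TPM values of 6738 genes with 1 annotated transcript. The bases taken off each transcript's length were fitted separately for each library, at 75 to 200 over the 13 libraries. Of 55254 symbols 53255 matched GENCODE M21. Promoter sequences are from RefSeq (GRCm38.p6).

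The test was limma 3.58.1 (R 4.3.3, trend and robust) on log2(TPM + 1), all 26 libraries fitted with 1 mean per group, two-sided, Benjamini-Hochberg adjusted over 12034 genes. The code was tested on simulated data. The spread is shared between groups although LY+FGF4 libraries spread more. No 2 of the 13 libraries were duplicates (largest r 0.869). Replicate numbers do not pair embryos (6 pairs, median residual r -0.0141).

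The members and the gene lists were chosen with earlier results of these data known. Named genes are a panel of 16, among called genes with a mean of at least 5 TPM in the higher group the 10 with the highest and the 10 with the lowest log2 fold change, the 4 called members of each list with the smallest p, and the 5 separated genes with the smallest p in each direction, without predicted, Y-linked and Xist symbols. Others (Spred1, Dppa2, P4ha2, Itga3, Fn1, Fdft1 and genes given without a call) were named after their values were seen. Alternatives were other filters, pseudocounts and scalings, covariates, the 13 libraries alone, a replicate block, library weights and leaving out libraries. Results for 2 genes are not reported here.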

Additional observations from a re-analysis of the deposited data

Results flagged for a closer look

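In 170 groups of libraries screened over the named genes, 10 held a library far from the others of its group, against 8.5 that chance gives at 1 in 20. Sox2 was at 4.1 TPM in LY replicate 7, against 29.9 to 60.3 TPM in the other LY libraries. Etv4 was at 26.22 TPM in LY replicate 4 and at no more than 1.8 TPM in the others. In LY replicate 7 Bcl2l14 was at 51.27 TPM against 93.8 to 140 TPM, and in LY replicate 6 Top2a was at 16.93 TPM against 31.5 to 42.6 TPM. Among LY+FGF4 libraries Nup62cl was at 0 in replicate 5, against 124 to 603 TPM. Sars was at 150.8 TPM in replicate 8, against 323 to 360.2 TPM, and Pmaip1 at 90.52 TPM in replicate 6, against 232 to 373 TPM. In LY+FGF4 replicate 7 Wdr25 was at 2.47 TPM and Snord17 at 328 TPM, with 0 in the other 5 libraries, and in replicate 6 Serhl was at 2.16 TPM with 0 in the other 5.

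The FGF4 effect on Serhl differed with and without LY by -4.34 on the log2 scale (interaction in limma, adjusted p = 0.0213). Serhl averaged 19.7 ± 13.9 TPM with DMSO (SD, n = 5), 23.1 ± 10.9 TPM with FGF4 alone (n = 8), 25.1 ± 23.7 TPM with LY (n = 7) and 0.36 ± 0.88 TPM with LY+FGF4 (n = 6).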

How the results depend on the processing

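The 758 calls (216 higher, 542 lower) moved by over 1.5 times in several fits. They were 320 (87 and 233) in the 13 libraries alone and 400 (108 and 292) with the filter applied within them. They were 108 (53 and 55) with the gene number as covariate, and 1 (0 higher and 1 lower) with that covariate in the 13 libraries. With the trophectoderm mean as covariate they were 246 (73 and 173), with the Y-linked mean 438 (140 and 298) and with library weights 356 (89 and 267). Median centring left 332 lower calls. Other filters, pseudocounts and scalings, the estimated reads as covariate and limma without its trend and robust options gave 540 to 786. Leaving out 1 library gave 523 (without LY+FGF4 replicate 2) to 865 (without LY+FGF4 replicate 7). With the replicate block 545 genes passed (150 higher, 395 lower), and the numbers did not pair the libraries (1 of 6 same-numbered pairs correlated best with its own number). Of the 79 named genes past the threshold 59 held in all 13 runs that left out 1 library. The sign changed for Sox2 with the trophectoderm mean (0.81), with the replicate block (0.0102) and in single-library omissions, which gave -0.63 (without LY replicate 7) to 0.20 (without LY+FGF4 replicate 6). It changed for Cdx2 with a pseudocount of 10 (0.27) and with the trophectoderm mean (1.79), and for Hk1 with the gene number as covariate in the 13 libraries (0.039). The causes were not tested. At these depths a value of 0 for a gene of low level does not show that its transcript was absent.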
